A study of Mus musculus with 4 samples.

Results

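Members of the Bcl-2 family and the executioner caspase Casp6 were followed in 3T3-L1 cells treated with risperidone. The 8 genes, which are Bcl2, Bcl2l1, Mcl1, Bax, Bak1, Bid, Bcl2l11 and Casp6, were taken by their symbols and not by their values, and all 8 were found among the 16051 genes of the expression table. All 8 also averaged 1 FPKM (fragments counted relative to transcript length and library size) or more across the 4 libraries, the requirement that left 10243 genes to test. Casp6 was the only caspase among the 8 genes.

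The study asked how risperidone, a second-generation antipsychotic drug associated with weight gain, acts on fat cells. 3T3-L1 is an established mouse embryonic fibroblast line (strain NIH SWISS in the labels) that can be differentiated into adipocytes with a hormone mixture. Per the study's methods, differentiated cells received either the solvent dimethyl sulfoxide (RNC, 2 libraries) or 100 µM risperidone (RIS, 2 libraries) for 48 h, and each library held RNA pooled from 3 cultures. The labels call the RNC cells untreated, describe the tissue as embryonic and mention retinas in the extraction. Replicates are therefore pools, and p-values measure only the spread between these libraries.

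The libraries held between 15883712 and 16374119 estimated counts, so that a count of 0 allowed up to 0.183 to 0.189 CPM (3 counts, counting error only). The adipocyte label was checked with 10 markers, 9 of which were in the table. Fabp4, Lpl, Pparg and Cd36 averaged 1 FPKM or more, whereas Adipoq, Plin1, Cidec, Retn and Cebpa had at most 0.51 FPKM in any library. The summed level of the adipocyte markers was 378 and 432 FPKM in RNC and 266 and 277 FPKM in RIS, while that of 7 fibroblast or preadipocyte markers was 1202 and 1181 FPKM in RNC and 1530 and 1498 FPKM in RIS. In the adipocyte list Fabp4 and Lpl were lower in both RIS libraries, while the levels of Pparg and Cd36 overlapped between the treatments. Members of the fibroblast or preadipocyte list differed in direction, with Col1a1, Thy1 and Dlk1 higher in RIS and Col3a1 and Pdgfrb lower. Pdgfra (13.5 and 13.3 against 11.95 and 12.6 FPKM) and Vim (616 and 600 against 589 FPKM in both) were only slightly lower in RIS. These FPKM values are not adjusted for differences in library composition. RIS replicate 2 stood apart in the 15 kidney markers, which summed to 219 FPKM against 1.91 to 3.12 FPKM in the other 3 libraries. The summed levels of the retina and endothelium markers stayed under 1 FPKM in every library. Among the leukocyte markers Ptprc was at or near 0, and Cd68 was at 2.64 and 3.5 FPKM in RNC and 6.34 and 6.70 FPKM in RIS. The part of these differences in the results was not tested, and the log2 fold changes of the 8 genes are also given without RIS replicate 2.

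The Bcl-2 family controls whether the outer mitochondrial membrane is breached during intrinsic apoptosis. Bcl-2, Bcl-xL and Mcl-1 hold back the pore-forming effectors Bax and Bak, and BH3-only proteins such as Bim and Bid either block these guardians or engage the effectors directly. Cytochrome c released through the pore drives assembly of the apoptosome and activation of caspase-9, which in turn activates the executioner caspases. In fat tissue, the same proteins set the sensitivity of preadipocytes and adipocytes to death signals, and the activity of most of them is also set after transcription.

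The regions around the start sites of Bcl2l1, Bcl2 and Bax are printed because Bcl2l1 and Bcl2 had the largest increases and Bax the largest decrease among the 8 genes. Each sequence runs 5′ to 3′ on the gene's own strand, from 250 bases before the start to 50 bases after it (RefSeq, GRCm38.p6, all on the minus strand), and capitals mark matches on either strand to the GC box (GGGCGG) or the E-box (CACGTG).
Bcl2l1, chr2:152831679-152831978: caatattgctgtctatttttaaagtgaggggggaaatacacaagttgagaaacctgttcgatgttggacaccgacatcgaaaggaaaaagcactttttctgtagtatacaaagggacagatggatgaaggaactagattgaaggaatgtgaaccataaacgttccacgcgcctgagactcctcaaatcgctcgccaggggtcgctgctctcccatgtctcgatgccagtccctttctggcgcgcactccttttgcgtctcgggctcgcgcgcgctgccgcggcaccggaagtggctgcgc
Bcl2, chr1:106714241-106714540: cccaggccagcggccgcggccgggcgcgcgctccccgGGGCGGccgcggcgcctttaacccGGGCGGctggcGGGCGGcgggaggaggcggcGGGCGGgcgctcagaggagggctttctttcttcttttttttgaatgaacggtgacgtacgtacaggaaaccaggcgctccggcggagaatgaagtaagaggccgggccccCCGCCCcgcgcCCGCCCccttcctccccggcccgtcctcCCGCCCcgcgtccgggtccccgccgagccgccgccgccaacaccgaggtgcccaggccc
Bax, chr7:45466849-45467148: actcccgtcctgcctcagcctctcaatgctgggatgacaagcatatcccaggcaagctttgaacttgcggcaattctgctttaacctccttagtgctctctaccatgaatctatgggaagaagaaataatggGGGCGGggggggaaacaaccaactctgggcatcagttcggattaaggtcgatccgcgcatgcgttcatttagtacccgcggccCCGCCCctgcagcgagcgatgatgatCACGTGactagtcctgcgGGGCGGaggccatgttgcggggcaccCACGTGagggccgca
The Bcl2 window was the richest in G and C of the 3, at 76.0%, and held 7 GC boxes. The Bax window was at 57.3% and held 3 GC boxes and 2 E-boxes. The Bcl2l1 window was at 52.3%, close to the median of 52.7% over 32851 windows of the same length, and held none of the 8 motifs searched. Those motifs were the GC box (in 35.7% of all windows), the CCAAT box (CCAAT, 37.4%), the TATA box (TATAAA, 13.6%), the GAS element (TTCNNNGAA, 8.30%), the AP-1 site (TGANTCA, 7.81%), the E-box (7.15%), the FoxO element (GTAAACA, 3.65%) and the CRE (TGACGTCA, 1.79%). A match is a description of letters and not evidence that a factor binds. For Bcl2l1, 2 further windows at other start sites, with 49.3% and 55.7% G and C, also held none of the motifs. Of the other genes, Bcl2l11 (2 windows), Bid and Casp6 held 3 GC boxes per window, Mcl1 held 1 and Bak1 none, so that GC boxes were found in genes of either direction.

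All 8 genes passed the threshold of an adjusted p of 0.05 (two-sided quasi-likelihood test of edgeR, adjusted by Benjamini-Hochberg over all genes tested). Bcl2l1, Bcl2, Bak1, Bcl2l11 and Mcl1 were higher in RIS, and Bax, Casp6 and Bid were lower. These calls have to be read against the whole table, in which 64.3% of the genes tested passed the same threshold, 32.1% as higher and 32.2% as lower. The median absolute log2 fold change was 0.35 for the 8 genes and 0.30 for all genes tested, and only Bcl2l1 reached 1. FPKM values of RNC and RIS did not overlap for 7 of the 8 genes, the exception being Mcl1, against 82.2% of all genes tested. In these bulk samples, fewer cells of a kind and less RNA per cell cannot be told apart.

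**Figure D1:**
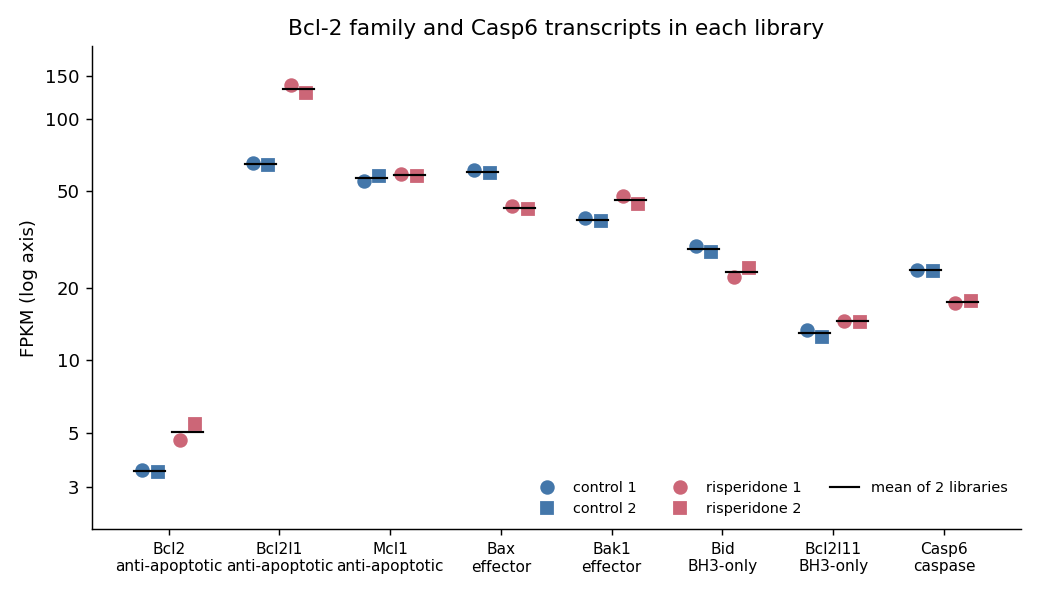
Level of the 8 genes in FPKM (log axis) in each of the 4 libraries, with circles for replicate 1, squares for replicate 2 and a line at the mean of the 2 libraries of a group. The RIS values of Bcl2l1 sit at 127 and 138 FPKM, well above its RNC values of 64.5 and 65.6 FPKM, while those of Mcl1 overlap.

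Among the anti-apoptotic genes, Bcl2l1, which encodes Bcl-xL, was at 65.6 and 64.5 FPKM in the RNC libraries and at 138 and 127 FPKM in the RIS libraries. Both RIS libraries were far above both RNC libraries, and the RIS pair was further apart than the RNC pair. The means were 65.0 ± 0.735 and 132.8 ± 7.55 FPKM (SD, n = 2 each). The log2 fold change was 1.08 (standard error 0.054, 95% interval 0.96 to 1.2, 2.12-fold, adjusted p = 7.79e-08 by edgeR), a larger absolute change than that of 94.6% of the genes tested. Without RIS replicate 2, the library with the kidney markers, it was 1.15, from a fit with 1 RIS library left. Bcl2l1 (Entrez 12048, chr2:152780668-152831728, minus strand, GRCm38) has 9 annotated transcripts, of which 8 are protein coding. The gene is known for an anti-apoptotic long form and a pro-apoptotic short form made by splicing, and the table gives 1 value for the gene.

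The ratio of a gene's count to its FPKM gives the transcript length that the quantification assigned to it, averaged over its isoforms. For Bcl2l1 this implied length was 2385 and 2362 bases in RNC and 2308 and 2301 bases in RIS, shorter in both RIS libraries than in both RNC libraries. The change was -2.93%, larger in size than that of 90.1% of the 8052 genes averaging 5 FPKM or more, for which the 5th and 95th percentiles were -3.54% and 2.31%. For Bcl2, Mcl1, Bid, Bcl2l11 and Casp6 the implied lengths of the treatments overlapped. Those of Bax and Bak1 were longer in RIS by 0.664% and 0.430%. Which isoforms account for the difference in Bcl2l1 was not tested.

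Bcl2, the founding member of the family (Entrez 12043, chr1:106538178-106714274, minus strand), was the least abundant of the 8 transcripts. It was at 3.51 and 3.45 FPKM in RNC and at 4.67 and 5.47 FPKM in RIS, from 388 to 619 counts per library. Both RIS libraries were above both RNC libraries, with replicate 2 the higher of the RIS pair, the opposite order from Bcl2l1. Its log2 fold change was 0.64 (standard error 0.078, 95% interval 0.47 to 0.81, 1.56-fold, adjusted p = 3.33e-05 by edgeR). Without RIS replicate 2 it was 0.53, and without RIS replicate 1 it was 0.74. Its exons share 558 bases with an antisense gene, and the strand setting of the counting is not given in the sources used here.

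Mcl1 encodes a short-lived guardian that neutralizes Bak and Bim, and lies at chr3:95658788-95663176 (Entrez 17210, plus strand). It was at 55.4 and 58.0 FPKM in RNC and at 59.1 and 57.8 FPKM in RIS. RNC replicate 2 was above RIS replicate 2, so the treatments overlapped. After TMM scaling, which adjusts for differences in library composition, the log2 fold change was 0.14 (standard error 0.047, 95% interval 0.036 to 0.24, adjusted p = 0.0228 by edgeR). The call was lost under 8 of 14 alternative settings with the sign kept, among them leaving out RNC replicate 1 (0.11), RNC replicate 2 (0.17) or RIS replicate 1 (0.12), and on the TPM scale the sign turned (-0.10). On that scale the median of all genes was -0.22, and Mcl1 was 0.13 above it.

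The effectors Bax and Bak1 moved in opposite directions. Bax (Entrez 12028, chr7:45461697-45466898, minus strand), which is held in the cytosol until it is activated, was at 61.1 and 59.7 FPKM in RNC and at 43.6 and 42.2 FPKM in RIS. The libraries of each treatment lay close together, and both RIS libraries were lower. On the log2 scale the change was -0.39 (standard error 0.057, 95% interval -0.51 to -0.26, 0.764-fold, adjusted p = 0.000136 by edgeR). It was between -0.41 and -0.36 with each library left out in turn. Bax shares 192 exon bases on its own strand with Gm45808, an annotated gene for which no level was found. The estimated counts of Bax were whole numbers in every library, and whether reads were split was not tested.

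Bak1 (Entrez 12018, chr17:27019810-27029009, minus strand), the effector that resides in the mitochondrial outer membrane, was at 38.9 and 37.6 FPKM in RNC and at 47.9 and 44.2 FPKM in RIS. Both RIS libraries were above both RNC libraries. The log2 fold change was 0.37 (standard error 0.064, 95% interval 0.23 to 0.51, 1.29-fold, adjusted p = 0.000417 by edgeR). The opposite-strand gene Ggnbp1, with which Bak1 shares 614 exon bases, had a mean of only 0.58 FPKM. On the TPM scale the increase was 0.12 and no longer passed the threshold. There Bak1 was 0.345 above the median of all genes.

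The BH3-only genes also parted. Bid (Entrez 12122, chr6:120891930-120916853, minus strand), which caspase-8 cleaves to carry a death receptor signal to the mitochondria, was at 29.9 and 28.1 FPKM in RNC and at 22.2 and 24.1 FPKM in RIS. Both RIS libraries were lower than both RNC libraries. On the log2 scale Bid changed by -0.23 (standard error 0.066, 95% interval -0.38 to -0.082, 0.854-fold, adjusted p = 0.0109 by edgeR). The call was lost with DESeq2 (-0.23, adjusted p = 0.0674) and without RNC replicate 1 (-0.18, adjusted p = 0.0552 by edgeR). Bid shares 628 exon bases with the opposite-strand gene Bcl2l13, which was itself higher in RIS, by 0.20 on the log2 scale. The estimated counts of both genes were whole numbers in every library. How reads from the shared part were assigned was not tested.

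Bcl2l11, which encodes Bim, lies at chr2:128126038-128162547 (Entrez 12125, plus strand). It was at 13.4 and 12.5 FPKM in RNC and at 14.6 and 14.5 FPKM in RIS. Both RIS libraries were above both RNC libraries, and the RIS pair was closer together than the RNC pair. The log2 fold change was 0.26 (standard error 0.063, 95% interval 0.12 to 0.40, 1.19-fold, adjusted p = 0.0044 by edgeR). The call was lost with limma on log2 FPKM (0.16, adjusted p = 0.0606) and on log2 TPM (0.02, adjusted p = 0.788). On the TPM scale Bcl2l11 was 0.25 above the median of all genes.

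Casp6 encodes an executioner caspase that cleaves nuclear lamins, and lies at chr3:129901425-129914103 (Entrez 12368, plus strand). It was at 23.7 and 23.6 FPKM in RNC and at 17.4 and 17.6 FPKM in RIS. Replicates differed by far less than the treatments, and both RIS libraries were lower. Its log2 fold change was -0.34 (standard error 0.063, 95% interval -0.48 to -0.20, 0.792-fold, adjusted p = 0.000727 by edgeR). Casp6, Bax, Bcl2l1 and Bcl2 kept their direction and their call in every alternative in which they were tested. Without RIS replicate 2 the log2 fold changes of the other 6 genes were 0.16 for Mcl1, -0.36 for Bax, 0.43 for Bak1, -0.28 for Bid, 0.27 for Bcl2l11 and -0.34 for Casp6, each past the threshold by edgeR.

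**Figure D2:**
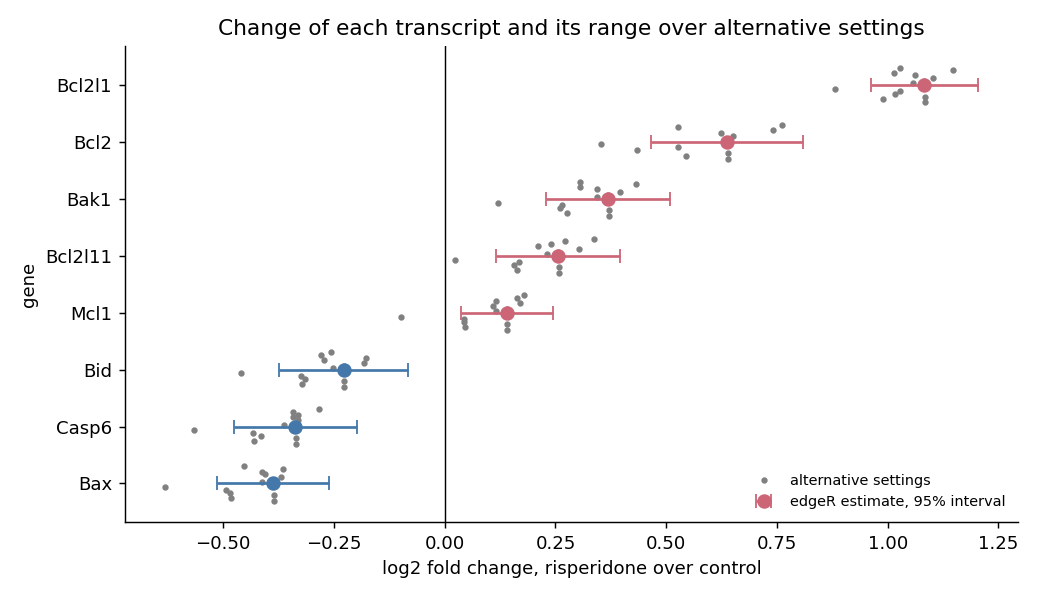
Log2 fold change of each of the 8 genes, RIS over RNC, with the edgeR estimate and its 95% interval (large points and bars, red for higher and blue for lower in RIS) and the values under 13 or 14 alternative settings (grey points). Only the grey points of Mcl1 fall on both sides of 0, and the estimate for Bcl2l1 stays between 0.88 and 1.15.

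Levels of different genes were compared within a library on the FPKM scale, which is per length. In RNC the order from high to low was Bcl2l1, Bax, Mcl1, Bak1, Bid, Casp6, Bcl2l11 and Bcl2. In RIS it was Bcl2l1, Mcl1, Bak1, Bax, Bid, Casp6, Bcl2l11 and Bcl2, so that Bax went from the second place to the fourth. No neighbours in either order overlapped over the 2 libraries of that treatment.

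Ratios between genes within a library do not depend on how libraries are scaled to each other. Bcl2l1 over Bax was 1.07 and 1.08 in RNC and 3.17 and 3.02 in RIS, that is, near parity in the first and far from it in the second. Bcl2l1 over Mcl1 was 1.18 and 1.11 in RNC and 2.34 and 2.21 in RIS. Bak1 over Bax was 0.638 and 0.629 in RNC and 1.10 and 1.05 in RIS, and the effector with the higher level changed from Bax to Bak1. Bcl2l1 over its BH3-only partner Bcl2l11 was 4.88 and 5.18 in RNC and 9.45 and 8.82 in RIS. Mcl1 over Bcl2l11 showed no such separation, at 4.12 and 4.66 in RNC and 4.05 and 4.0 in RIS, where the lower RNC ratio was close to both RIS ratios.

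By role, the 3 anti-apoptotic genes held 42.7% and 43.8% of the summed FPKM of the 8 genes in RNC and 58.1% and 57.2% in RIS. The share of Bcl2l1 alone was 22.5% in both RNC libraries and 39.7% and 38.3% in RIS, a larger difference than that of the anti-apoptotic share as a whole. The effectors held 34.3% and 33.9% in RNC and 26.3% and 25.9% in RIS. The BH3-only genes went from 14.9% and 14.1% to 10.6% and 11.6%, and Casp6 from 8.13% and 8.20% to 5.0% and 5.28%. The ratio of the anti-apoptotic to the effector sum was 1.24 and 1.30 in RNC and 2.21 in both RIS libraries. With 2 libraries against 2, no permutation test of these ratios could pass the threshold, and they are given as a description of transcripts, not of proteins.

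**Figure D3:**
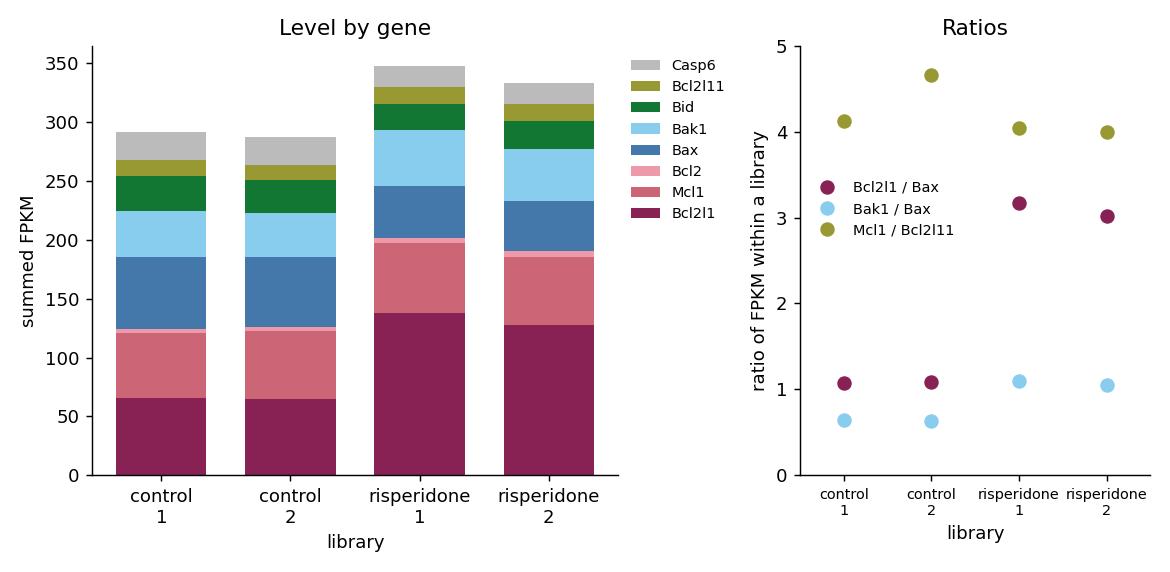
Left, FPKM of the 8 genes stacked for each library. Right, 3 ratios of FPKM within a library, in which Bcl2l1 over Bax is 1.07 and 1.08 in RNC and 3.17 and 3.02 in RIS, while Mcl1 over Bcl2l11 lies between 4.0 and 4.66.

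The other genes of the apoptosis machinery were described from 9 lists of 82 genes, of which 72 were in the table and 62 were tested. Of these, 11 were higher and 29 were lower in RIS and 22 did not pass the threshold, with a median log2 fold change of -0.16 against 0.00044 over all genes tested. The 40 genes called among 62 have to be read against the 64.3% called over all genes tested, 32.1% as higher and 32.2% as lower, as do the counts of each list. The split between the directions depends on how libraries are scaled. Over all genes tested it was 3287 higher and 3303 lower with TMM, 2500 and 4092 with library size only, 2420 and 3975 with limma on log2(FPKM + 1), and 1536 and 5292 with limma on log2(TPM + 1). For the 62 genes tested it was 8 and 31, 7 and 31, and 2 and 38 under the last 3 of these.

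Outside the 8 genes, 1 anti-apoptotic and 4 effector or BH3-only genes were tested, of which 3 were lower and none was higher. Bmf, a BH3-only gene linked to the cytoskeleton, was at 32.2 and 30.6 FPKM in RNC and at 9.94 and 10.5 FPKM in RIS, or -1.53 on the log2 scale (adjusted p = 1.22e-08 by edgeR). It was well above Bcl2l11 in both RNC libraries and below it in both RIS libraries. Bcl2l2, which encodes the anti-apoptotic Bcl-w, was lower by -0.27 on the log2 scale (27.4 and 27.7 FPKM in RNC, 21.0 and 22.1 FPKM in RIS). Bad, a BH3-only gene, was lower by -0.33 and shares 524 exon bases with the opposite-strand gene Gpr137. Bbc3, which encodes Puma, was at -0.23 (adjusted p = 0.363) and Bok, a further effector, at -0.30 (adjusted p = 0.438), and neither passed the threshold. Pmaip1, which encodes Noxa, had 0 counts in 3 libraries and 3 in RIS replicate 2 and was not tested. Of 10 tested relatives and co-factors, 2 were higher and 5 were lower. They included the mitophagy receptors Bnip3l (-0.54) and Bnip3 (-0.42), the co-chaperone Bag3 (-0.43) and its relative Bag1 (0.36), which did not pass on TPM (0.12).

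Of the other caspases, Casp12 (-0.33) and Casp4 (-0.22), which belong to the inflammatory group, were lower in RIS. Both lost their calls with DESeq2 (adjusted p = 0.0651 and 0.202) and without RNC replicate 2 (-0.24 and -0.22), and Casp4 also with no filter and without RNC replicate 1 (-0.21) or RIS replicate 1 (-0.16). The initiators Casp8 (-0.040, adjusted p = 0.657) and Casp9 (0.034, adjusted p = 0.631) did not pass the threshold, and the sign of Casp9 turned under 4 alternative settings. On the TPM scale both passed as lower (-0.27 and -0.20), but the median of all genes on that scale was itself -0.22.

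The apoptosome and mitochondrial factors had 6 higher and 1 lower of 11 tested, with a median of 0.14. These 7 calls are close to the share of 64.3% over all genes tested, and the upward count depends on the scaling. Htra2, a mitochondrial protease that binds inhibitor of apoptosis proteins once released, was at 27.1 and 27.7 FPKM in RNC and at 78.3 and 72.8 FPKM in RIS (log2 fold change 1.56, standard error 0.063, adjusted p = 2.09e-08 by edgeR). A caution applies, since 753 of its exon bases overlap Aup1 on the opposite strand, which had a mean of 126.8 FPKM. Opa1, which shapes the cristae that hold cytochrome c, was higher by 0.47, the apoptosome scaffold Apaf1 by 0.38 and the channel Vdac2, which binds Bak, by 0.31. Apaf1 did not pass with limma on FPKM or TPM or without RNC replicate 2 (0.32, adjusted p = 0.0831 by edgeR), and Vdac2 did not pass on TPM (0.063, adjusted p = 0.307 by limma).

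Of 6 inhibitor of apoptosis genes, 4 were lower and none was higher. This share of calls was close to the 64.3% over all genes tested, where 32.2% were called as lower. The 4 lower genes were Birc2 (-0.57), Birc3 (-0.48), Birc6 (-0.38) and Xiap (-0.30), which encodes a direct inhibitor of caspases. Birc3 lost its call with DESeq2 (adjusted p = 0.0563) and without RNC replicate 1 (-0.39, adjusted p = 0.141 by edgeR), and with length and GC offsets Birc6 was at -0.17 and Xiap at -0.16. In the death receptor list 5 of 10 were lower and 1 was higher. Cflar, which encodes the caspase-8 inhibitor c-FLIP, was at 11.5 FPKM in both RNC libraries and at 5.06 and 4.82 FPKM in RIS (log2 fold change -1.13, standard error 0.067, adjusted p = 1.95e-07 by edgeR). The adaptors Fadd (-0.52) and Tradd (-0.32) and the kinase Ripk1 (-0.35) were lower. Fadd lost its call without RNC replicate 1 (-0.40, adjusted p = 0.134 by edgeR). Tradd lost it with DESeq2 (adjusted p = 0.148), with no filter, and without RNC replicate 1 (-0.26), RNC replicate 2 (-0.36) or RIS replicate 2 (-0.26). The lower genes of this list thus included an inhibitor of the pathway as well as its adaptors.

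Of 8 caspase substrates, 2 were higher and 3 were lower. Acin1, which promotes chromatin condensation after cleavage, was at 40.2 and 41.6 FPKM in RNC and at 22.0 and 21.7 FPKM in RIS (-0.97, standard error 0.049). Its implied length was 3554 and 3433 bases in RNC and 3162 and 3098 bases in RIS (-10.4%), and which isoforms account for this was not tested. Sptan1 was lower by -0.40. Rock1 was higher by 0.29 and Parp1 by 0.18, a direction that turned on the TPM scale for Parp1. Rock1 did not pass on that scale (0.065), nor Parp1 with library size only, with limma on FPKM or without RNC replicate 2 (0.15). Of 5 enzymes that set the turnover of the Mcl-1 protein, 4 were lower and none was higher. Over all genes tested 64.3% were called, 32.2% as lower, and the lower share depends on the scaling. The 4 lower genes were the ubiquitin ligases Trim17 (-0.87), Fbxw7 (-0.69) and Huwe1 (-0.25) and the deubiquitinase Usp9x (-0.17). Once length and GC content entered as offsets, Usp9x turned sign (0.030) and Huwe1 lost its call (-0.050, adjusted p = 0.371 by edgeR). Both also lost it without RNC replicate 1 (-0.14 and -0.16), and Huwe1 with no filter (adjusted p = 0.051 by edgeR). Trim17 shares 708 exon bases on its own strand with Hist3h2a.

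**Figure D4:**
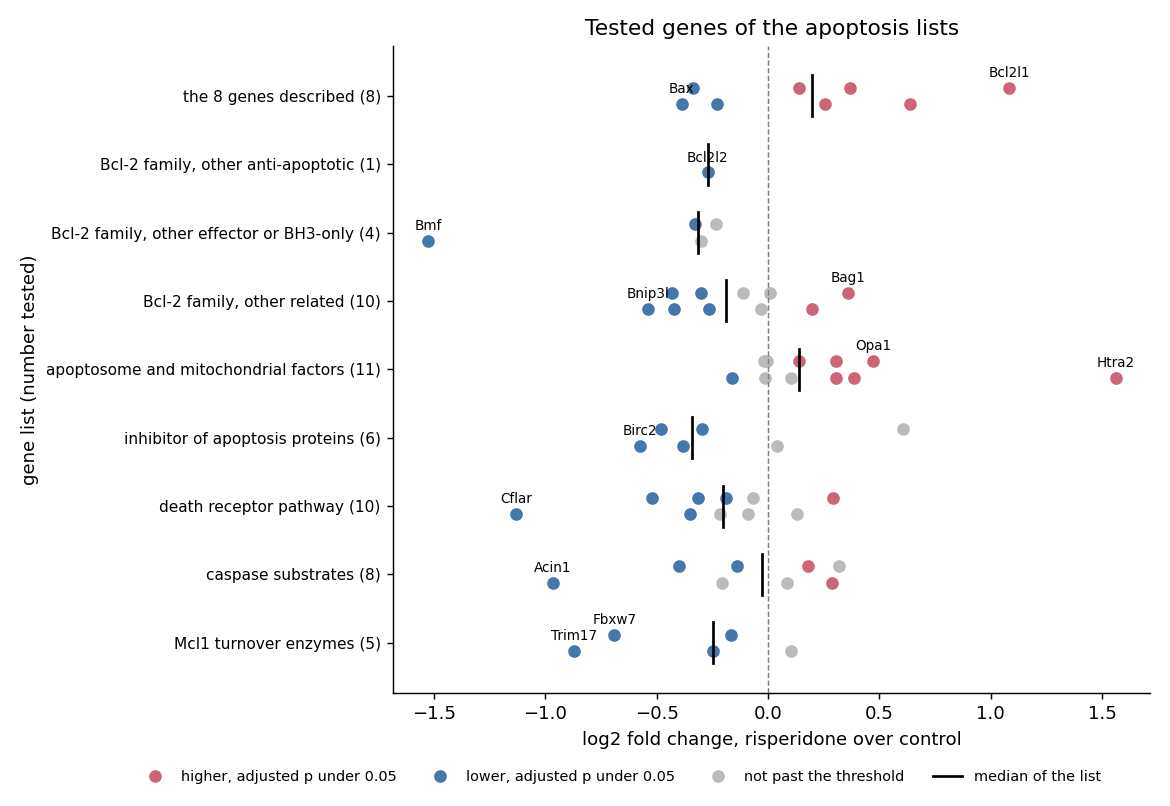
Log2 fold change (RIS over RNC) of the 8 genes and of the tested genes of 8 other apoptosis lists (the other caspases are not drawn), 1 point per gene, red or blue where the adjusted p is under 0.05 by edgeR, with the median of each list as a black line. Of the genes drawn, Bmf and Cflar lie beyond -1, and Htra2 and Bcl2l1 beyond 1.

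Genes with the most similar profile over the 4 libraries were sought for the 3 of the 8 genes with the largest changes, among 8051 genes averaging 5 FPKM or more. Likeness was the Euclidean distance between centred log2(FPKM + 1) values. Nearest to Bcl2l1 were the ribosomal protein gene Rpl3 (0.040), Mapk8ip3 (0.040) and Mllt3 (0.044), and 23 genes lay within 0.1. Nearest to Bcl2 were Tkfc (0.029), Rpl34 (0.046) and Stk39 (0.048), with 35 genes within 0.1. Nearest to Bax were Spata2 (0.012), Sppl2b (0.012) and Stat3 (0.016), with 279 within 0.1. With 4 libraries in 2 groups, likeness says mainly that the size of the change was similar.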

How the data were processed

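RNA of 4 libraries was sequenced on an MGISEQ-2000. Per the labels, the authors' processing used Bowtie2, RSEM and DESeq2 with GRCm38.p6, and versions are not given in the sources used here. The authors deposited estimated counts, FPKM and TPM per gene in 1 table. Estimated counts were rounded and tested with edgeR 4.0.16 (TMM, quasi-likelihood test, treatment as the only term, Benjamini-Hochberg adjustment) on the 10243 genes averaging 1 FPKM or more, and the fits were tested on simulated data. Depth was 15883712 to 16374119 counts per library. Symbols of 6 genes occur more than once in the table, none of them described here. Alternatives used DESeq2 1.42.0, limma 3.58.1 on log2 values with pseudocounts of 1 and 0.1, other scalings and filters, a replicate block and libraries left out. Offsets for length and GC content and a crossed block were added after seeing the data. The 8 genes and the lists were chosen with earlier results of these data known. Named genes were the 8 genes, up to 4 with the largest change past the threshold from each list, Casp8, Casp9, Bad, Bbc3, Pmaip1, Bok and Bcl2l2, and the 3 nearest profiles. Some genes that this rule names are not reported here. Genes whose exons overlap these and marker genes were added to show overlap and purity. Gene positions are from GENCODE M21 (GRCm38).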

Additional observations from a re-analysis of the deposited data

How the results depend on the processing

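Bcl2l1, Bcl2, Bax and Casp6 kept direction and call in every alternative run for them (13 for Bcl2, which fell under a filter of 5 FPKM, and 14 for the others). With limma on log2 FPKM, with a pseudocount of 1 or 0.1, 3 of the 8 genes and 7 of the other apoptosis genes were higher, and on log2 TPM 5 of the 8 passed, 2 of them higher, with 2 of the other genes higher. Leaving out each library in turn gave 6 to 8 of the 8 genes past the threshold and 7 to 13 of the other genes higher (11 with all libraries, 7 without RNC replicate 2). Mcl1 was 0.046 with library size only, 0.14 with DESeq2 (adjusted p = 0.0606) and with no filter, 0.043 and 0.044 with limma on FPKM, -0.098 on TPM and 0.11 to 0.17 with libraries left out. Bak1 was 0.12 on TPM, Bid -0.23 with DESeq2 and -0.28 to -0.18 with libraries left out, and Bcl2l11 was 0.16, 0.17 and 0.024 with limma on FPKM (pseudocounts of 1 and 0.1) and on TPM. The sign turned for Casp9 (-0.060, -0.057, -0.063 and -0.20 with library size only, both FPKM fits and TPM), Parp1 (-0.057 on TPM), Usp9x (0.030 with offsets) and Bok, which ranged from -0.81 to 0.078 with libraries left out. The median over all genes tested moved as well, from 0.00044 with TMM to -0.093 with library size only. It was -0.084 and -0.092 with limma on FPKM (pseudocounts of 1 and 0.1) and -0.22 on TPM. The cause of the changes in single genes was not tested. Among the other named genes 30 values lost the call with the sign kept, most often for Casp4 and Tradd (5 each) and Apaf1 and Parp1 (4 each), and Casp8 and Casp9 passed on TPM. Same-numbered libraries did not deviate together (correlation -0.10), and the replicate block kept 8 of the 8 genes past the threshold, with Bcl2l1 at 1.08, and gave 3292 higher and 3321 lower genes over the table. The crossed block gave 3474 and 3519. With DESeq2, 2639 genes were higher and 2653 lower. Leaving out a library leaves 1 in that group, which is then assumed to vary like the other group. Bok and Bbc3 had under 60 counts in each library, with standard errors of 0.33 and 0.22.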
